A study of Mus musculus with 2 samples.

Results

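The transcripts described here are the RefSeq noncoding RNAs with a strong signal in mouse glomeruli. They were selected on their measured signal, as the gene probes of an Agilent expression array whose target accession starts with NR_, the RefSeq prefix for noncoding transcripts, and whose mean processed signal was 1000 or more on both arrays of the study. The rule gave 118 probes for 94 accessions, out of 1216 NR_ probes for 1078 accessions and 39423 gene probes with at least 1 spot that the scanner software had not marked as an outlier on each array. Brightness is therefore a description of these members and not a result.

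Glomeruli, the filtering units of the kidney, were isolated with magnetic beads from male mice aged 8 months. The group labelled Sirpa-/- is given as a knockout of Sirpa in podocytes, the cells whose foot processes cover the filter, and was set against the wild-type (WT) group. The Sirpa product SIRPα is an inhibitory receptor for CD47. The single Sirpa probe goes against the label, with 17315 on the array labelled Sirpa-/-, against 11624 on the WT array (log2 difference 0.64), and where it lies relative to the deleted part is not known. Both groups had received 0.5 ml of pristane, a hydrocarbon oil that induces lupus-like disease, into the peritoneum 4 months before. No uninjected mice were analysed here, a deletion in podocytes leaves Sirpa intact in the other glomerular cells, and how many animals each array stands for is not stated in these sources. The design text speaks of podocytes and the sample labels of glomeruli. Each group had 1 array, so the differences below have no replicate check and no test, and every one is the log2 signal of the array labelled Sirpa-/- minus that of the WT array, each scaled to its 75th percentile (a signal of 1109 and 1158). Fewer cells of a type and less RNA per cell cannot be told apart in such bulk RNA.

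Noncoding RNAs of this kind have several roles. Host transcripts of small nucleolar RNAs (snoRNAs) carry in their introns the guides that modify ribosomal RNA, and once spliced most of them are short-lived. Long nuclear RNAs such as Neat1 and Malat1 organise bodies in the nucleus, opposite-strand transcripts start beside or within a protein-coding gene, and transcribed pseudogenes resemble a coding gene without giving its full protein. Many snoRNA host transcripts begin with a run of pyrimidines, as ribosomal protein transcripts do.

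The snoRNA hosts included the member with the lowest difference (Snhg16) and one of the highest (Snhg12), so the sequences around their annotated starts are shown with those of other hosts for comparison. They were taken from RefSeq, with Snhg16 from 250 bases before to 50 after its start and the others from 50 before to 50 after. Capitals mark the letters CCTTTC where they lie on the transcript's strand between positions -15 and 25 of the start.
Snhg16 (GRCm38.p6, chr11:116671410-116671709, plus strand): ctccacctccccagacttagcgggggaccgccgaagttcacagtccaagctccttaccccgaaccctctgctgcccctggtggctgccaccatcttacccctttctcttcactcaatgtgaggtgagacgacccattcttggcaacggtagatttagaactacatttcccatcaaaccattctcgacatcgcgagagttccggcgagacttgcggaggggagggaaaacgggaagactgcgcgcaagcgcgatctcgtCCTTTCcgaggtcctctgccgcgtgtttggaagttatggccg
Snhg12 (GRCm38.p6, chr4:132308628-132308727, plus strand): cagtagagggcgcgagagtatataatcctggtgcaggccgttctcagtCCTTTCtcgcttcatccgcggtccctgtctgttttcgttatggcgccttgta
Snhg3 (GRCm38.p6, chr4:132353637-132353736, minus strand): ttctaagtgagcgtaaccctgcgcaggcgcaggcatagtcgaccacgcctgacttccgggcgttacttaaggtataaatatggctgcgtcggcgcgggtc
2410006H16Rik (GRCm38.p6, chr11:62602827-62602926, plus strand): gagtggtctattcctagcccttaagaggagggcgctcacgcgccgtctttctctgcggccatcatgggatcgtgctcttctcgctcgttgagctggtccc
Snhg18 (GRCm38.p6, chr15:32244613-32244712, minus strand): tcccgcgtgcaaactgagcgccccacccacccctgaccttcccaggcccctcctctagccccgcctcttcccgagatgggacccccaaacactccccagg
Dancr (GRCm38.p6, chr5:74093010-74093109, plus strand): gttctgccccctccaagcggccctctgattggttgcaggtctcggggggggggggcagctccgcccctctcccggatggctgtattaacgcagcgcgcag
The pyrimidine run CCTTTC lay near the start in Snhg16 and Snhg12 only among 33 such windows of 30 member genes (6.06%), and in 1.63% of 32851 windows of all genes in the RefSeq table. Anywhere in the window and on either strand it was found in 39.4% of the member windows and 23.8% of all windows, and the letters were picked after the sequences had been seen. Snhg16 and Snhg12 had been picked from opposite ends of the members, so their opposite directions say nothing about the shared letters. The median number of CG dinucleotides was 16 in the member windows and 7 in all windows.

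As a set, the noncoding transcripts lay close to equal signal on both arrays. Their median difference was -0.02, with 56 probes above 0 and 62 below, and a range from -1.01 to 1.04. The 10036 gene probes that passed the same signal threshold had a median of 0.00. Scaling on spike-in RNA moved the median of these probes to 0.13 and that of the members to 0.11, with 90 members above 0 and 28 below, so no direction is read from the set as a whole. A difference of 1.25-fold or more was reached by 6 member probes in the higher direction, next to 5.23% of all probes as bright, and by 7 in the lower direction, next to 5.69%. At 1.5-fold the count was 1 higher (background 1.33%) and 1 lower (background 1.74%), and both probes were also past 2-fold (background 0.349% higher and 0.648% lower). The members past 1.25-fold in either direction made up 11.0%, next to 10.9% of all bright probes, and those past 1.5-fold 1.69%, next to 3.07% (0.996% past 2-fold).

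**Figure D1:**
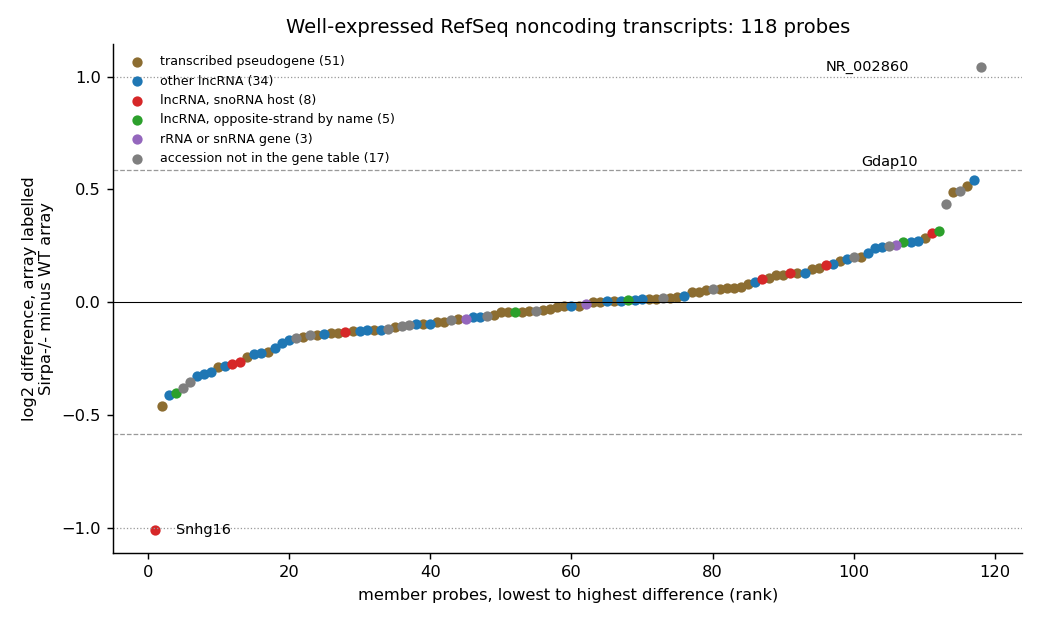
Log2 difference (array labelled Sirpa-/- minus WT array, 75th percentile scaling) of the 118 noncoding member probes, ordered from lowest to highest and coloured by RNA class; dashed lines mark 1.5-fold and dotted lines 2-fold. Snhg16 at -1.01 and a probe of NR_002860 at 1.04 are the 2 points past 2-fold.

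The files hold little from which to judge error. The scanner software's own error estimate for the log2 difference was 0.204 for every member, and so works as one fixed cutoff. Past it were 34 members, and 9 were past 2 times it. The shares of all bright probes past these sizes were not counted, so nothing about the members is read from these counts. The SD of the differences was 0.238 over the members and 0.254 over all bright gene probes, and their median size was 0.123 and 0.103. Among 132 bright probes spotted 10 times, the SD of the spot differences had a median of 0.049, which covers spotting and scanning but no spread between animals or extractions. Of the members, Tug1 alone was printed 10 times. Tug1 (NR_002321), a nuclear RNA that in mouse podocytes is known to raise transcription of the mitochondrial regulator Ppargc1a, had a mean signal of 1384 on the array labelled Sirpa-/-, against 1200 on the WT array. Its 10 spot differences ran from 0.16 to 0.34 with a mean of 0.27 ± 0.06 (SD over spots), all above 0.

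**Figure D2:**
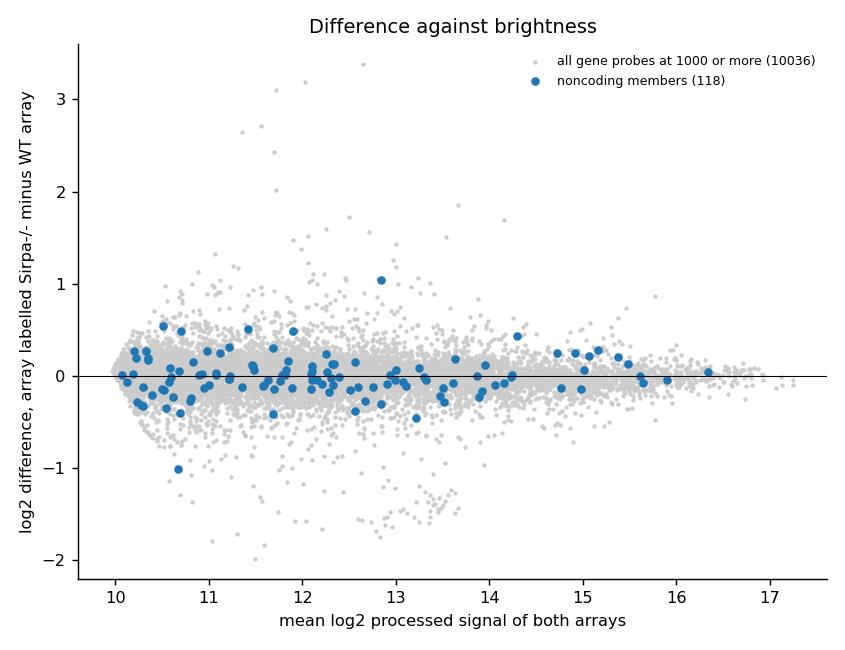
Log2 difference against the mean log2 processed signal of both arrays for all 10036 gene probes with a signal of 1000 or more on both (grey) and the 118 noncoding members (blue). The members lie within the grey cloud, and the left edge of the cloud narrows because both signals had to reach 1000.

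SnoRNA host transcripts spread on both sides of 0, with 4 member hosts higher and 4 lower among those that the gene table names. Snhg16 (NR_027821), whose annotated bounds hold the snoRNA genes Snord1a, Snord1b and Snord1c, had a signal of 1130 on the array labelled Sirpa-/-, against 2371 on the WT array, 2.01-fold lower (log2 difference -1.01). Its second probe was dimmer, with 139.6 against 217.9, and also lower (-0.58). Both Snhg16 probes kept this direction under each of the 6 other scalings and background settings, from -0.88 to -1.02 for the brighter one and from -0.33 (normexp) to -0.60 for the dimmer one. Dancr (NR_015531), a host RNA studied as a differentiation regulator, had 1589 against 2004 (-0.27, or -0.09 after normexp, another background correction). Snhg18 (NR_038186) had 5822 against 7311 (-0.27). The host 1110038B12Rik (NR_027943) had 1850 against 2115 (-0.13), within the software's error. On the other side, Snhg12 (NR_029468) had 3593 on the array labelled Sirpa-/-, against 3032 on the WT array (0.31), and 0.16 after normexp. The hosts Snhg3 (0.10), Snhg6 (0.13) and 2410006H16Rik (0.17) were within the software's error. On a list of 20 snoRNA host genes, 10 were matched by name and measured, with a median of 0.03. None was higher by 1.5-fold or more (background over 18239 genes 4.34%) and 1, Snhg16, was lower (background 5.26%). A host whose accession the gene table does not hold would be missing from these counts.

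Transcripts of the proteins that assemble snoRNAs into particles were also measured, and the proteins themselves were not. Of 11 names on the list, 10 were matched to a gene above background, 9 of them below 0. Their median was -0.19 beside 0.00 over all genes, and none was past 1.5-fold in either direction (background 9.61%). With spike-in scaling the list's median was -0.06. Nhp2, a core protein of the H/ACA particles that guide pseudouridylation, had 3884 on the array labelled Sirpa-/-, against 5042 on the WT array (-0.31). Nop10, its partner in the same particle, had 9070 against 11278 (-0.25). Nop58, a core protein of the box C/D particles that guide ribose methylation, had 3959 against 4783 (-0.21), and Fbl, their methyltransferase, 2630 against 2844 (-0.05).

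Among the long nuclear RNAs, Neat1 and Malat1 leaned in opposite directions, both by little. Neat1 (NR_003513), the scaffold of paraspeckles, had 36264 on the array labelled Sirpa-/-, against 32504 on the WT array (0.22). Malat1 (NR_002847), an RNA of nuclear speckles, had 4603 against 5440 (-0.18), and -0.02 after normexp. Norad (NR_024329), a cytoplasmic RNA that binds Pumilio proteins, had 5213 against 4612 (0.24). Norad's dimmer probes gave 0.24, 0.32 and 0.40, all higher as well. Tug1's dimmer probes likewise gave 0.29 and 0.14. Peg13 (NR_002864), an imprinted RNA expressed from the paternal copy, had 19055 against 19725 (0.01). The X-linked Kantr (NR_040269) had 1946 against 2170 (-0.10), and the transcript of the Gt(ROSA)26Sor locus (NR_027008), used widely for transgene insertion, 6496 against 7377 (-0.12). On a list of 37 nuclear and regulatory RNAs, 19 were measured, with none higher by 1.5-fold or more (background 4.34%) and 2 lower, Meg3 and Mirg (background 5.26%), and a median of -0.03 (0.10 with spike-in scaling).

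The transcripts of the protein partners of these RNAs differed little. Of the transcripts for 10 paraspeckle proteins, all measured, none was past 1.5-fold in either direction (background 9.61%) and the median was 0.05. Tardbp was the lowest of them (9919 against 13625, -0.40) and Pspc1 the highest (1231 against 1045, 0.30). Nonsense-mediated decay factors, which degrade many spliced snoRNA hosts, had a median of 0.11 over 14 measured of 15, with 11 above 0 and none past 1.5-fold. Among them Smg1, the kinase of the pathway, had 6437 against 5592 (0.26), and Upf1, its helicase, 582.1 against 572.3 (0.09). Nuclear decay and 3′ processing factors had a median of 0.00 over 15 measured of 17 listed names, also with none past 1.5-fold. Pabpn1, the nuclear poly(A)-binding protein, was the lowest of these (5507 against 7965, -0.47).

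The opposite-strand transcripts were compared with the genes they are named after. Wt1os (NR_015462), which by its name lies on the strand opposite to the podocyte transcription factor gene Wt1 and whose annotated bounds do not overlap it, had 2605 on the array labelled Sirpa-/-, against 2188 on the WT array (0.31), and its dimmer probe gave 0.41. Wt1 itself had 68898 against 59382 (0.28), so both were higher by a similar amount. This was not particular to the pair, since Eif3m, on the other side of Wt1os, gave 0.19 and 0.34. Past Wt1, Rcn1 was at 0.27, while the dim Them7 was lower (50.32 against 75.92, -0.53). Foxd2os (NR_030721) had 1407 against 1939 (-0.40), while Foxd2, a forkhead factor gene, had 12012 against 10448 (0.26). Zbtb11os1 (NR_027965) had 1263 against 1095 (0.27), while Zbtb11, a zinc finger gene, had 399.4 against 473.5 (-0.18). The mean of both Sp3os probes was -0.02 and Sp3, a zinc finger factor gene, was at -0.08 (3130 against 3466). Fbxl12os (NR_033729), which the gene table classes as a pseudogene, had 4888 against 4945 (0.05) with dimmer probes at -0.37 and -0.69, and Fbxl12, an F-box protein gene, had 4682 against 4254 (0.20). By the means of the member probes, 2 of these 5 pairs, Foxd2os and Zbtb11os1 with their genes, pointed apart. The probes of Fbxl12os, and those of Sp3os (-0.04 and 0.01), lay on both sides of 0. Whether the probes tell the strands apart was not tested.

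Transcribed pseudogenes were the most numerous class, with 51 probes. Their median was 0.00, all but Pisd-ps1 lay between -0.29 and 0.51, and 3 probes (5.88%) were past 1.25-fold, next to 10.9% of all bright probes. Pisd-ps1 (NR_003517) had 7959 on the array labelled Sirpa-/-, against 11435 on the WT array (-0.46), and Pisd, the mitochondrial enzyme that makes phosphatidylethanolamine, had 5963 against 9062 (-0.54). Cyp4b1-ps2 (NR_033575) had 4453 against 3311 (0.49), beside Cyp4b1, a cytochrome P450 gene, with 48372 against 39652 (0.35). H2-K2 (NR_004446) gave 0.29 and 0.20 on its probes, beside 0.10 to 0.27 on those of H2-K1, a class I antigen-presenting gene. Pairs near 0 were Rps4l and Rps4x (-0.02 and -0.01), Selenok-ps1 and Selenok (-0.02 and 0.08) and Hmgb1-rs17 (NR_033589) with Hmgb1 (0.07 and, over 7 probes, up to 0.20). Gpr137b-ps (0.15) and Gpr137b (-0.10) lay on different sides of 0, and Macroh2a3 (0.06) and Macroh2a1 (0.16) on the same side. Slc2a4rg-ps (NR_045164) had 1622 against 2003 (-0.24), and no measured probe was matched to a gene named Slc2a4rg. H2-K1, Rps4x and Macroh2a1 were paired with their pseudogenes by hand after the values had been seen. A pseudogene probe may also read its parent's transcript, and how far it does was not tested.

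**Figure D3:**
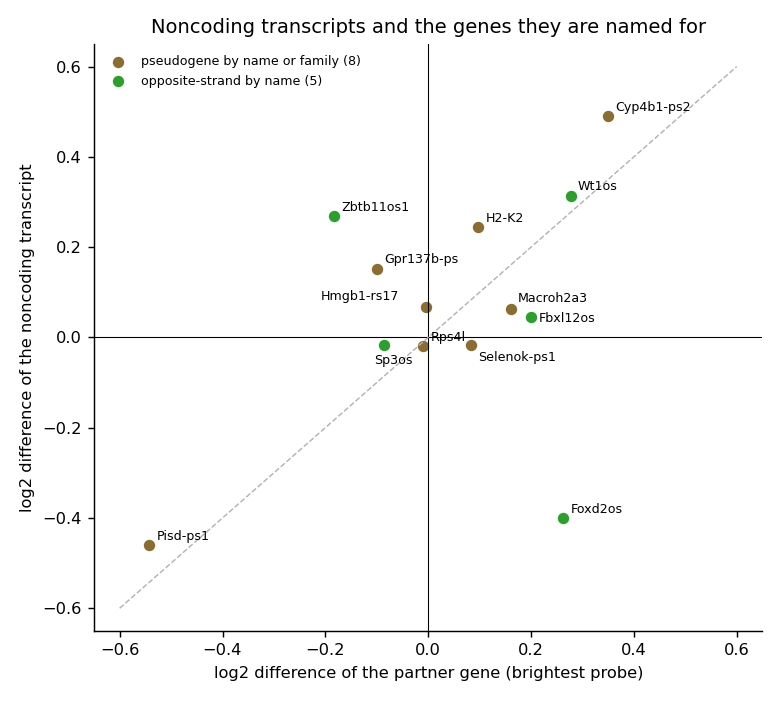
Log2 difference (array labelled Sirpa-/- minus WT array) of each noncoding transcript (mean of its member probes, vertical axis) against the brightest probe of the gene it is named after (horizontal axis), for pseudogenes (brown) and opposite-strand transcripts (green); the dashed line marks equality. Pisd-ps1 and Cyp4b1-ps2 lie near their genes, and Foxd2os (-0.40 against 0.26) lies farthest from the line.

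Gm9079 (NR_004052), a pseudogene, was higher on one probe (3204 on the array labelled Sirpa-/-, against 2342 on the WT array, 0.51) and near equal on the other (8189 against 8198, 0.06). Gm10653 (NR_003965) gave -0.29, -0.22 and -0.02 on its probes, all below 0. The 10 brightest member probes include those of H2-K2, Neat1 and Hmgb1-rs17 given above. Gm6548 (NR_003363) had 82231 against 83287 (0.04) on one probe and 0.13 on the other. Gm12070 (NR_002890) had 58804 against 63336 (-0.04, or 0.08 with spike-in scaling), Gm15772 (NR_003373) 49045 against 51082 (0.00) and Gm8580 (NR_027478) 30125 against 34767 (-0.14, or 0.02 after normexp). Rn4.5s (NR_002841), a small rodent RNA, had 48864 against 53616 (-0.07, or 0.06 with spike-in scaling). Rn28s1 (NR_003279), the 28S ribosomal RNA, had 32957 against 28852 (0.25). The small nuclear RNA Rnu12 of the minor spliceosome had 1508 against 1581 (-0.01).

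A group of 17 member probes belongs to 12 accessions that the gene table does not hold, and these are given by accession. Whether any of them is a snoRNA host or another gene on the lists was not checked. NR_002860 had the highest member difference, with 10298 on the array labelled Sirpa-/-, against 5223 on the WT array, 2.06-fold higher (1.04). Its second member probe had 1929 against 1432 (0.49), and another, below the threshold, 878.1 against 844.4 (0.12). All 3 were higher, by log2 differences from 0.12 to 1.04. NR_002840 had 23006 against 17743 on its brightest probe (0.44), with 0.06 and 0.64 on the others. NR_015476 was lower on both of its probes, with 5195 against 7062 (-0.38, or -0.19 after normexp) and 1298 against 1729 (-0.35). NR_003280 had 28866 against 25344 (0.25) and NR_003278 1251 against 1138 (0.20).

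The remaining long noncoding RNAs, 34 probes with those named above, had a median of -0.07. Gdap10 (NR_045032) was the highest, with 1726 on the array labelled Sirpa-/-, against 1237 on the WT array, 1.46-fold higher (0.54). Others on the high side were 2810013P06Rik (NR_045268, 2173 against 1881, 0.27) and AW549542 (NR_045702, 2382 against 2097, 0.25). On the low side, 4930412O13Rik (NR_024257) had 2803 against 3887 (-0.41), while its dimmer probe, at 20.16 against 14.33, went the other way (0.56). Gm10845 (NR_033535) was lower on all of its probes (-0.33, -0.22 and -0.13). 4933405E24Rik (NR_045506) had 1084 against 1411 (-0.32), and I730030J21Rik (NR_045781) 13751 against 16852 (-0.23). For 1700110I01Rik (NR_038059), 6448 against 8330 on the member probe (-0.31) stood beside 0.18 and 0.42 on dimmer probes. 2700046G09Rik (NR_033198) had 1073 against 1361 (-0.28) and -0.18 on its dimmer probe.

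Probes of the same accession were read on the same pair of arrays. They show how far probes agree, and nothing of the spread between animals or extractions. Of the 94 accessions, 18 had several member probes, 42 in all, and the median spread between their differences was 0.092. In 14 of the 18 the spread was under 0.2, and in 13 all probes had one direction. NR_002860 had the widest spread, 0.55. A further 22 probes of member genes were measured below the threshold, and 13 of these had the sign of the member probes. Where the member difference was 0.2 or more in size, 10 of 13 had the same sign, the exceptions being 4930412O13Rik and both probes of 1700110I01Rik.

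**Figure D4:**
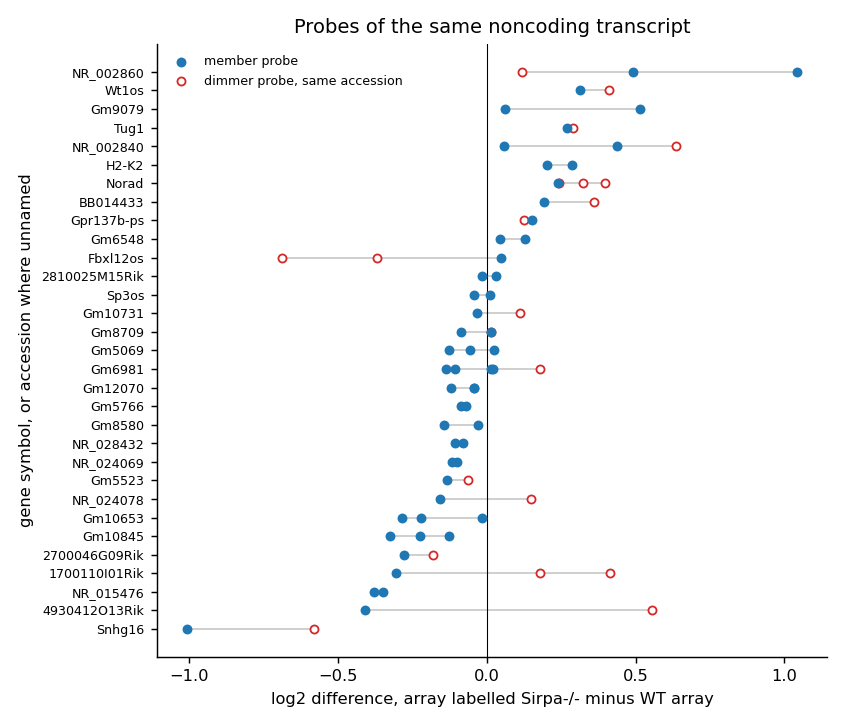
Log2 difference (array labelled Sirpa-/- minus WT array) of each probe for the noncoding transcripts with more than 1 measured probe. Filled points are member probes, open points are dimmer probes of the same accession, and grey lines join them. Snhg16, Norad and NR_015476 keep to one side of 0, while 4930412O13Rik and 1700110I01Rik do not.

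Snhg16 and Gdap10 each stood beside genes with larger differences in the same direction. In the annotated order of chromosome 11, Prcd, a gene of photoreceptor outer segments, is the gene before Snhg16, and it had 40.22 on the array labelled Sirpa-/-, against 602 on the WT array (-3.84, or -2.74 after normexp). A second Prcd probe was at -3.09 (-1.56 after normexp). Cygb, the cytoglobin gene one place farther, had 113.9 against 1819 (-3.94, or -3.27 after normexp). On the other side, past the Snord1 genes, the sialyltransferase gene St6galnac2 had 546.5 against 11933 (-4.39). The noncoding BC018473 after it had 176.9 against 430.9 (-1.22). The low run ended on both sides, at Rhbdf2 (-0.20), an inactive rhomboid gene, and at St6galnac1 (-0.27 and 0.12), another sialyltransferase gene. On chromosome 12 the annotated bounds of Gdap10 overlap those of Nampt, the rate-limiting enzyme of NAD salvage, which had 6900 on the array labelled Sirpa-/-, against 3347 on the WT array (1.11). Ccdc71l, next to Nampt, had 5981 against 3093 (1.01) and, on a second probe, 4474 against 2471 (0.92). The noncoding 4933406C10Rik on the other side of Gdap10 was at 0.33 and the Sypl probes after it at 0.06 and 0.17. These directions were the same under each of the 6 other scalings and background settings for Snhg16, Prcd, Cygb, St6galnac2, BC018473, Gdap10, Nampt and Ccdc71l.

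**Figure D5:**
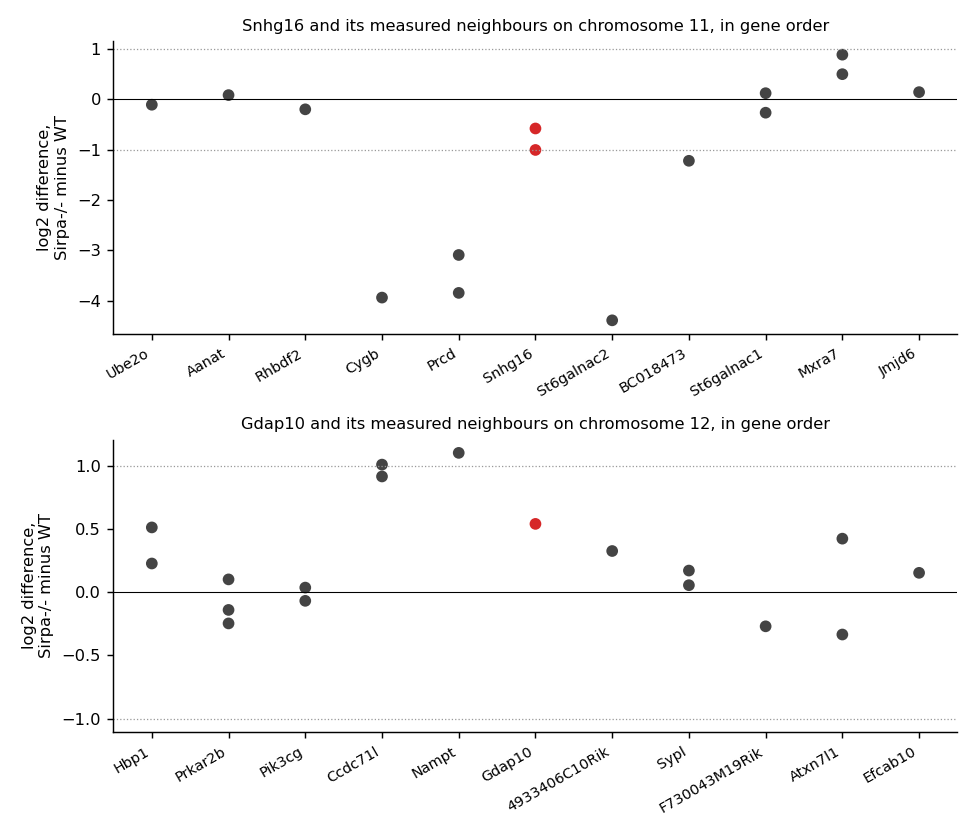
Log2 difference (array labelled Sirpa-/- minus WT array) of each measured probe of Snhg16 (upper panel) and Gdap10 (lower panel), in red, and of the 5 nearest measured genes on either side in annotated order, in black; dotted lines mark 2-fold. The run from Cygb to BC018473 lies below -0.5 on every probe, and Ccdc71l and Nampt lie near 1.

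The neighbours of the other long noncoding members were mixed. Over all 43 such genes and 86 nearest measured neighbours, which share the same pair of arrays, the correlation of the differences was 0.452, and it was -0.252 without Snhg16 and Gdap10. Of the 86 neighbours, 10 were past 1.5-fold in either direction, next to 9.61% of all genes. Gm10845 on chromosome 14, for example, had one neighbour at 1.14 (Pcdh8, 60.32 on the array labelled Sirpa-/-, against 28.68 on the WT array) and the other at -1.06 (Pcdh17, 598.4 against 1305), both protocadherin genes. For the 39 pseudogene, rRNA and snRNA genes with 76 neighbours the correlation was 0.146.

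The signal threshold left some transcripts out. Just inside it lay Gm8709 (1055 on the array labelled Sirpa-/-, against 1092 on the WT array), 2610306M01Rik (1067 against 1166) and 2700046G09Rik. Just outside lay AI646519 (1068 against 995.7), Mir17hg, the host of a microRNA cluster (1018 against 990.2), and Zfp133-ps (975.5 against 1445). In all, 10 NR_ probes passed on 1 array only, 4 on the array labelled Sirpa-/- and 6 on the WT array. Of these, 2610507I01Rik had 1201 against 230.2 (2.45) and 1700052K11Rik 953.1 against 1978 (-0.99). Meg3, a maternally expressed imprinted RNA, had 904.1 against 1627 (-0.79), and Mirg, from the same imprinted cluster, 245.2 against 399.9 (-0.64). Of the 803 measured NR_ probes below the threshold, 14.3% were past 1.5-fold, next to 13.0% of all 22913 measured gene probes below it.

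Both arrays carried glomerular RNA by their markers, and the marker lists differed between them as follows. All 6 podocyte markers were bright, with a summed signal of 365339 against 339131 and a median of 0.16. B cell markers summed to 3512 against 926.4, higher for 5 of 5, and erythroid markers to 53091 against 18098, higher for 4 of 5. Loop and distal tubule markers summed to 4374 against 2466, higher for 5 of 6, and proximal tubule markers to 5120 against 7933, lower for 6 of 6. Endothelial (-0.09, or 0.04 with spike-in scaling), mesangial (-0.19), T cell (0.42) and macrophage (-0.71) lists completed the set by their medians. The part of these cells in the differences of the noncoding transcripts was not tested.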

How the data were processed

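One-colour Agilent arrays, 1 for each group, measured Cy3-labelled cRNA made from 0.25 µg of glomerular RNA. Per the file headers, the authors extracted spot intensity with Agilent Feature Extraction 11.0.1.1 (9.1 per the submitters' processing notes), and the processed intensity is background-subtracted and not normalized between arrays. The quality flags in the deposited files are other values, set by the software. The authors' deposited table holds log2 values for 39483 probes with a median of 6.5 in each column, as quantile normalization gives; each column correlated best with its own array (r = 0.9938 for Sirpa-/- and 0.9945 for WT), its steps are not stated in these sources, and it served as an alternative.

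Unmarked spots of a probe were averaged, log2 was taken and the 75th percentile over gene probes subtracted. Each array had 44397 spots, 0 of them saturated, and 83.6% of gene probes were well above background on both. The precision of the differences is limited by having 1 array per group. A list gene was represented by its brightest probe. A listed name with no probe matched through the gene table counts as not measured, which covers older gene names and unmatched accessions. Accessions were named through a GRCm38.p6 RefSeq gene table, and 101 member probes (82 accessions) matched. Gene order, annotated bounds, the snoRNA genes within them and the start windows also came from GRCm38.p6. Probes were not placed by position, because the array was designed on another build. With 1 array per group no test was made. Fixed sizes of 1.25-, 1.5- and 2-fold are counted beside all probes as bright. The counting was tested on simulated data.

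The members and lists were chosen with earlier results of these data known. Named are Sirpa, the 15 highest and 15 lowest members, the 10 brightest, members on a list and 3 probes on each side of the threshold; a few others were named after their values were seen. Alternatives were quantile, median, loess and spike-in scaling, normexp (R 4.3.3, limma 3.58.1, offset 50, on the median signal), the authors' table, thresholds of 500 and 2000, all spots, and 1 value for each accession.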

Additional observations from a re-analysis of the deposited data

How the results depend on the processing

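With 1 array per group, no array could be left out and no value has a replicate spread; brightness over background did not limit the members, while the dimmer probes and neighbours named beside them rest on weaker signals. No paired analysis was possible because the labels carry no replicate numbers and each group has 1 array. Among all settings run, the size counts of the members moved in these cases. The shares over all bright probes were counted in the main setting only, so these counts show the dependence on processing and nothing about the members. Spike-in scaling, over 8 spike-in probes, gave a member median of 0.113, beside 0.133 over all bright probes. It gave 5 members higher by 1.5-fold or more and 0 lower by 2-fold or more. This scaling adds one constant to every difference. Normexp, which changed the number of members to 123, gave 2 lower by 1.5-fold or more and 0 lower by 2-fold or more. A threshold of 500 gave 167 probes, with 2 higher and 3 lower by 1.5-fold or more. A threshold of 2000 gave 85 probes, with 0 lower by 1.5-fold or more and 0 by 2-fold or more, since Snhg16 reached 2000 on 1 array only. With 1 value for each accession, 0 were higher by 2-fold or more, since the probes of NR_002860 are averaged. Quantile scaling, median centring, loess, the authors' table and the inclusion of marked spots left these counts within 1.5 times. Of 46 named member probes, spike-in scaling changed the sign of 3 (Rn4.5s, 2610306M01Rik and Gm12070), median centring (Gm15772), loess (Gm8709) and normexp (Gm8580) of 1 each, and quantile scaling and the authors' table of 0. Normexp moved 14 of them by more than the spot spread of 0.049; the cause was not tested.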
